A study of Mus musculus with 12 samples.

Results

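Cells washed from the peritoneal cavity of mice that carried the ovarian cancer line ID8 with an added follicle-stimulating hormone receptor (FSHR) were compared with cells from mice that carried the line without it. The first line is named ID8 (defb29/Vegf-a) FSHR in the sample labels and is shortened to ID8-FSHR, and the second, ID8 (defb29/Vegf-a), to ID8. The comparison used 8 of the 12 bulk RNA libraries of the series, 4 per group, chosen by the labelled cell line. All mice were C57BL/6J, both lines carry Defb29 and Vegfa by their labels, and cells were given intraperitoneally. Lavage with 8 mL of phosphate-buffered saline followed on day 7. The sample protocol gives 5000000 injected cells and the series text 4000000. The labels give no age or sex, no promoter or species for the receptor, and no word on whether the receptor-bearing line is 1 clone. No group received vehicle, and the 4 libraries of each group are biological replicates by the series text. The remaining 4 libraries came from uninjected mice and were not among the groups contrasted. They entered the filter, the scaling and the estimate of spread behind every p, and set the classes used below. A gene was near absent without tumour when its mean over them was under 0.5 CPM (counts scaled to a fixed library total), abundant at 10 CPM or more, and intermediate between.

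The follicle-stimulating hormone receptor is a G-protein-coupled receptor of ovarian granulosa cells that raises cyclic AMP and activates protein kinase A, with steroid synthesis genes among its targets there. ID8 is a cell line derived from mouse ovarian surface epithelium that grows in the peritoneal cavity. A lavage of such a cavity holds tumour cells together with resident macrophages, B cells, T cells and NK cells. In bulk libraries, fewer cells of a type and less RNA per cell cannot be told apart.

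The added genes were examined first. Reads on the mouse Fshr gene numbered 2 in ID8 replicate 3, and 2 and 7 in ID8-FSHR replicates 3 and 4, with 0 in each of the other libraries of both groups. For a count of 0, 3 counts were taken as an approximate upper limit, not a strict ceiling. These 3 counts came to between 0.0444 and 0.0605 CPM in the libraries of both groups. Fshr therefore failed the filter on low counts, and the label of the receptor line was not borne out or contradicted by it, since the sequence of the receptor construct is not given. Defb29, a beta-defensin gene, stood at 26.5, 20.8, 28.4 and 29.1 CPM in ID8 and at 23.8, 8.42, 21.6 and 20.1 CPM in ID8-FSHR, against 0 in every uninjected library. The groups overlapped, and the log2 fold change was -0.50 ± 0.27 (SE, n = 4 and 4; edgeR quasi-likelihood adjusted p = 0.262). Vegfa, the angiogenic growth factor, stood at 51.4, 52.8, 46.8 and 58.3 CPM in ID8 and at 75.9, 37.6, 75.8 and 59.3 CPM in ID8-FSHR. Here too the groups overlapped (log2 fold change 0.25, edgeR adjusted p = 0.422); Vegfa was called higher when ID8-FSHR replicate 2 was left out (edgeR adjusted p = 0.0407, the lowest in a range up to 0.69 over the alternatives).

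Total counts per library were 47419608 to 64333677 in the 8 libraries. One library stood apart: ID8-FSHR replicate 2 lay at 54.0 on the first principal component of the 8 libraries, which held 52.6% of their variance and on which the others lay between -36.4 and 33.5. Genes near absent without tumour took 0.909% of its counts, against 1.78 to 2.10% in the other ID8-FSHR libraries, 1.95 to 2.37% in ID8 and 0.0531 to 0.0639% in uninjected mice. The mean share was 2.23 ± 0.191% in ID8 and 1.65 ± 0.516% in ID8-FSHR (SD, n = 4 each), with 1 ID8-FSHR library inside the ID8 range. Results below are given without ID8-FSHR replicate 2 where that changed them.

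Of 16915 genes tested, 1962 (11.6%) were called at an edgeR adjusted p under 0.05. Those higher in ID8-FSHR numbered 1021 (6.04%) and those lower 941 (5.56%), and the median log2 fold change of all tested genes was -0.0062. At an at least 2-fold change, 412 genes were higher and 260 lower. All 4 ID8-FSHR values lay above all 4 ID8 values for 1309 genes (7.74%), and below them for 1822 genes (10.8%). The balance of directions moved with the scaling: with factors taken only from genes near absent without tumour, the median log2 fold change of all genes was 0.24, and 826 genes were higher and 268 lower (75.5% of calls higher, against 52% with factors from all genes). Directions below are relative to the scaling on all genes. A fit of only the 8 tumour libraries gave 746 higher and 604 lower. Leaving out ID8-FSHR replicate 1 raised the counts to 1731 higher and 1405 lower. The counts fell by more than 1.5 times without ID8 replicate 3 (569 and 466), without ID8 replicate 4 (555 and 406) and without ID8-FSHR replicate 4 (636 and 553), and for lower genes also without ID8 replicate 1 (709 and 494).

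Calls and medians are given by class. Of 3378 genes near absent without tumour, 69 (2.04%) were higher in ID8-FSHR and 171 (5.06%) lower, with a median log2 fold change of -0.20. Of 8682 genes abundant without tumour, 588 (6.77%) were higher and 528 (6.08%) lower, with a median of 0.02, and only 67 of the higher and 22 of the lower changed at least 2-fold. The 4855 intermediate genes had 364 (7.5%) higher and 242 (4.99%) lower, with a median of -0.05. Under the scaling on near-absent genes the medians were 0.0079, 0.28 and 0.19 for the near-absent, abundant and intermediate classes.

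**Figure D1:**
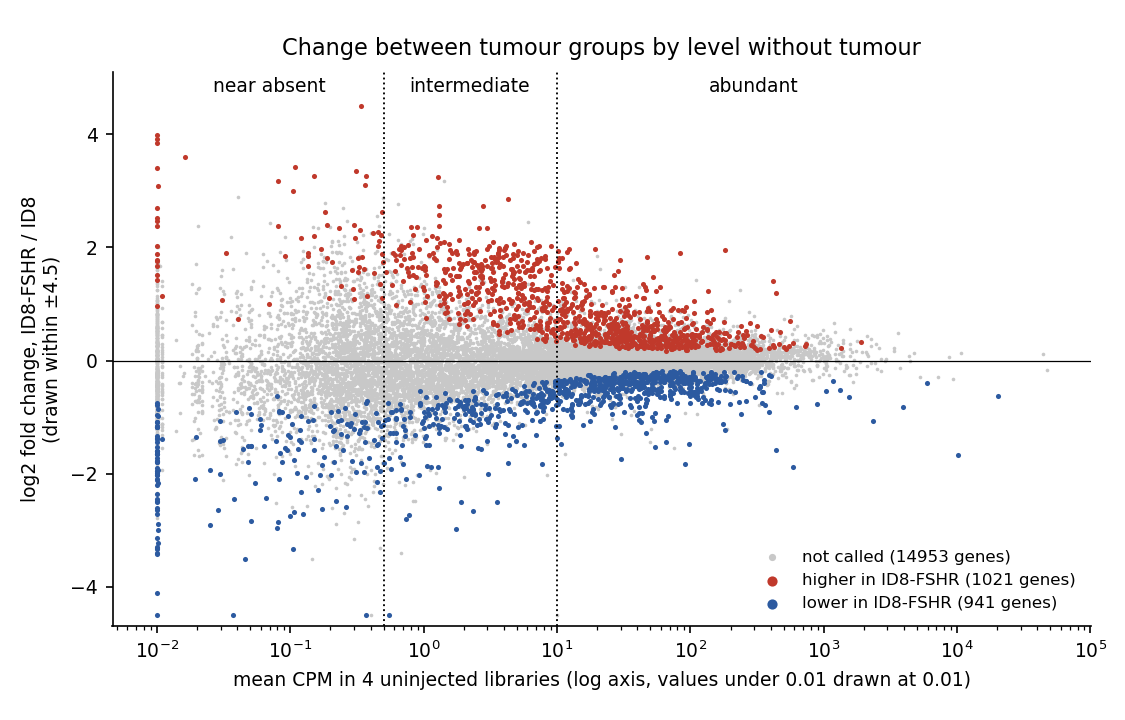
Log2 fold change between ID8-FSHR and ID8 (vertical axis) against the mean CPM in 4 uninjected libraries (horizontal log axis), 1 point per tested gene. Red marks the 1021 genes called higher, blue the 941 called lower, grey the rest, and dotted lines the class limits of 0.5 and 10 CPM; called genes with fold changes beyond 1 on the log2 scale lie mostly in the near-absent and intermediate classes.

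Cell cycle genes were higher in ID8-FSHR. All 24 tested genes of the G2 and mitosis list were higher in ID8-FSHR, with a median log2 fold change of 1.92 and a range of 1.58 to 2.10. All 24 genes of the G1/S and DNA replication list were higher, with a median of 1.18, and all 18 of the DNA repair list, with a median of 1.48. The ID8-FSHR values lay above every ID8 value for 24, 24 and 17 of these genes, where 7.74% of all tested genes did so. Of all tested genes 6.04% were called higher. The numbers of list members called higher were 24, 24 and 18 with all libraries, and 24, 24 and 17 without ID8-FSHR replicate 2. Under the scaling on near-absent genes 24, 24 and 18 were called higher, with medians of 2.16, 1.45 and 1.72.

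Mki67 encodes the nuclear protein Ki-67, present in cycling cells and lost on exit from the cycle. Its level was 167.9, 136.0, 127.6 and 112.4 CPM in ID8 and 359.2, 572.4, 588.0 and 499.8 CPM in ID8-FSHR, against 83.5 ± 16.5 CPM (SD, n = 4) in uninjected mice. Every ID8-FSHR library stood above every ID8 library, and the fold was 3.71 (log2 1.89 ± 0.18 SE, edgeR adjusted p = 7.78e-05). Top2a, the topoisomerase that untangles replicated chromosomes, read 183.6, 143.6, 116.6 and 119.7 CPM in ID8 and 412.1, 472.1, 577.9 and 551.3 CPM in ID8-FSHR. The groups did not overlap, replicate 2 sat within the ID8-FSHR range, and the fold was 3.57 (edgeR adjusted p = 8.8e-05). Kif23, a kinesin of the midzone in dividing cells, rose by 1.98 on the log2 scale, Cenpf and Cenpa, of the kinetochore, by 1.93 and 1.81, and Ccna2, the S and G2 cyclin, by 1.91. Aspm and Tpx2, both of the spindle, rose by 1.82 and 1.75. Increases among called intermediate genes were ranked only where the groups did not overlap and the mean log2 CPM was at least 3. The 4 largest of these were Mtfr2 (2.2), a mitochondrial fission regulator, Ccnb1 (2.10) and Ccnb2 (2.05), the mitotic cyclins, and Nusap1 (2.03), a spindle protein. These 12 genes were called whichever of the 12 libraries was left out.

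Genes that build DNA changed with a smaller spread. Tyms, thymidylate synthase, stood at 18.5, 18.8, 17.1 and 16.1 CPM in ID8 and 39.9, 40.8, 42.4 and 45.7 CPM in ID8-FSHR. The 4 values of each group lay close together and the groups were far apart (log2 fold change 1.26 ± 0.10 SE, edgeR adjusted p = 3.11e-05). Pola1, a DNA polymerase alpha subunit, rose by 1.21 on the log2 scale. Brca1, a scaffold of homologous recombination, rose from 19.4 ± 2.93 to 57.0 ± 7.82 CPM (SD, n = 4 each), and its partners Bard1 and Brca2 by 1.5 and 1.04. The replication and repair genes were expressed without tumour too, at 6.38 CPM for Tyms and 5.76 CPM for Brca1 on average, so these levels do not say which cells of the lavage carried the increase. The share of counts on near-absent genes was 2.23% in ID8 and 1.65% in ID8-FSHR, and its part in the result was not tested.

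Many mitosis genes are switched by a promoter pair made of a cell cycle homology element and CCAAT boxes. The promoters of 3 list members are shown: those with the smallest adjusted p among members with both letter runs in the 250 bases before the RefSeq start. They are from RefSeq on GRCm38.p6, 5′ to 3′ on the strand of the gene, and capitals mark TTTGAA and CCAAT on either strand (TTCAAA and ATTGG are their reverse complements).
Kif11 promoter, chr19:37376132-37376381, plus strand: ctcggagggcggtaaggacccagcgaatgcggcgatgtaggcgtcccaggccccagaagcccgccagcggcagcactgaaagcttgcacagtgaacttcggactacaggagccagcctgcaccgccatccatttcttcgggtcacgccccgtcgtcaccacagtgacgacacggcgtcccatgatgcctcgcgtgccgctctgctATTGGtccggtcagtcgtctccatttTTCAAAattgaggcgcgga
Mki67 promoter, chr7:135716380-135716629, minus strand: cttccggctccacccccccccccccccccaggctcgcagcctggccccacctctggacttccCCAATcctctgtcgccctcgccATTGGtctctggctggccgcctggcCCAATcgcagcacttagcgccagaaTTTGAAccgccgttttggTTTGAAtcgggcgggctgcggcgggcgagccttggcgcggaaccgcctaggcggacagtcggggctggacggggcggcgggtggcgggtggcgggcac
Top2a promoter, chr11:99024190-99024439, minus strand: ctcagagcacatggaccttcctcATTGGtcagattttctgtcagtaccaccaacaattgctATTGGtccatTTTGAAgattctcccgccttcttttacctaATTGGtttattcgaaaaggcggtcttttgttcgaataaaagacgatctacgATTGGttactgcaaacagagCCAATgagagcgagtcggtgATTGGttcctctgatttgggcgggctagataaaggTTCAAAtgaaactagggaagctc

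The nearest TTTGAA ended 13 bases before the start in Kif11, 17 in Top2a and 92 in Mki67. Windows of 300 bases, 250 before and 50 after each RefSeq start, were matched by symbol for 20 of the 24 mitosis genes. TTTGAA, on either strand, was in 15 of these 20 (75%), against 15% of 11660 tested genes with a window and 20.2% of all 27025 genes in the table. CCAAT was in 17 of 20 (85.0%), against 42.6% and 41.1%, and both runs were in 14 of 20 (70.0%), against 6.17% and 7.97%. Both runs were in 16.0% of the 821 higher genes with a window and in 3.07% of the 716 lower genes. For the 18 G1/S genes with a window the share with both was 11.1%. The cAMP element TGACGTCA was in 3.78% of the higher genes, 3.21% of the lower genes and 3.27% of those tested. A match is a run of letters and does not show that a factor binds there.

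Genes induced by the tumour suppressor p53, whose products halt the cycle or start cell death, were lower in ID8-FSHR for 11 of 15 tested. Of these genes 0 were higher, and the median log2 fold change was -0.57. The same 11 had all 4 values below ID8, against 10.8% of all genes, and 5.56% of all genes were called lower. Cdkn1a, which encodes the cyclin-dependent kinase inhibitor p21, read 150.2, 158.0, 159.8 and 153.7 CPM in ID8 and 91.2, 117.1, 104.0 and 107.2 CPM in ID8-FSHR. The ID8 libraries lay close together and above all ID8-FSHR libraries (log2 fold change -0.57 ± 0.08 SE, edgeR adjusted p = 0.000815). Btg2, an antiproliferative gene, fell by 0.71 on the log2 scale and Zmat3, an RNA-binding p53 target, by 0.66. The other lower members were Mdm2, which degrades p53, Ccng1, Phlda3, Eda2r, Bbc3, Trp53inp1, Sesn2 and Aen. Bax, Pmaip1, Fas and Gdf15 did not pass. Without tumour, 11 of the 15 genes were abundant, 3 intermediate and 1 near absent. Their summed level was 782.2 to 866.3 CPM in uninjected mice, 1349 to 1442 CPM in ID8 and 937.4 to 995.5 CPM in ID8-FSHR. These levels do not say which cells of the lavage carried the decrease. Under the scaling on near-absent genes 4 members were lower, with a median of -0.30, and Cdkn1a and Btg2 no longer passed (edgeR adjusted p = 0.304 and 0.127, the highest values in ranges that began at 3.54e-09 and 6.98e-12 over the alternatives).

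**Figure D2:**
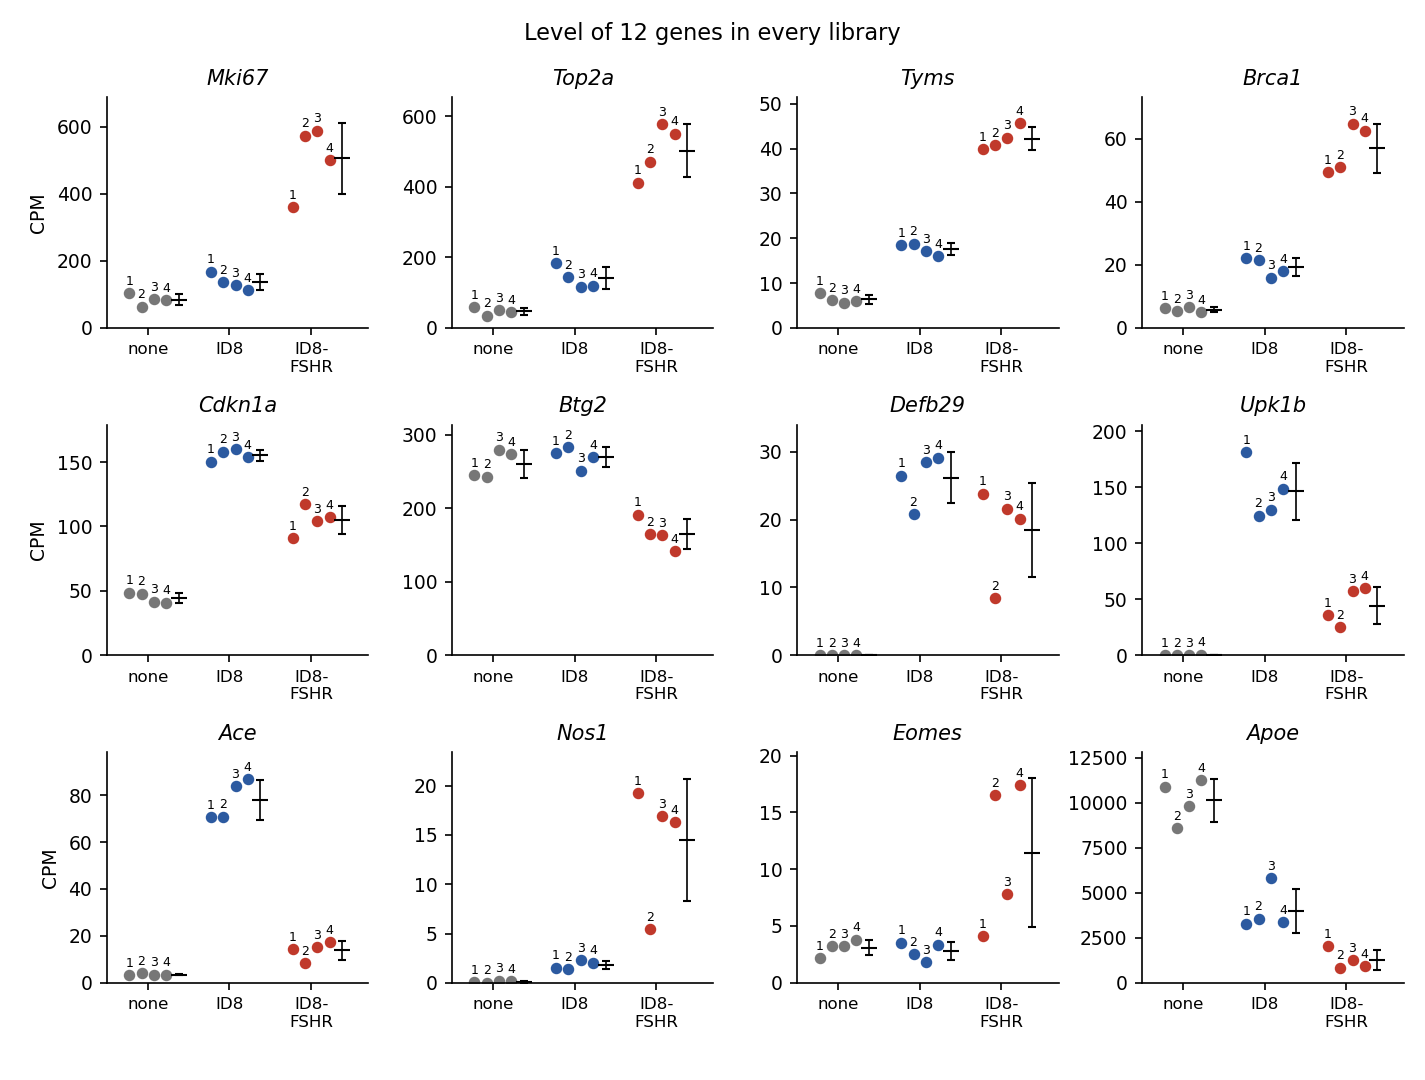
CPM of 12 genes in every library, on linear axes from 0, in uninjected (grey, "none"), ID8 (blue) and ID8-FSHR (red) mice; each point is 1 library with its replicate number, and the bar beside each group is the mean ± SD (n = 4). Mki67, Top2a, Tyms and Brca1 lie higher and Cdkn1a, Btg2, Upk1b, Ace and Apoe lower in all 4 ID8-FSHR libraries, while the groups overlap for Defb29.

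Among genes near absent without tumour, the larger changes were mostly decreases. Prex2, an exchange factor for Rac, stood at 44.9, 32.1, 40.4 and 41.5 CPM in ID8 and 4.46, 4.46, 7.85 and 7.01 CPM in ID8-FSHR. The ID8-FSHR values were all far below, a 6.69-fold drop (log2 -2.74 ± 0.28 SE, edgeR adjusted p = 0.000105). Prelp, a leucine-rich matrix proteoglycan, fell by 2.30 on the log2 scale, Pcdh19, a protocadherin, by 2.16, Samd12 by 2.10 and Perp, a desmosome protein, by 2.03. Pdgfc, a platelet-derived growth factor ligand, fell by 1.96 and the small GTPase gene Rasl11a by 1.75. ID8-FSHR replicate 2 was the lowest of its group for Prelp, Pcdh19, Samd12, Perp, Pdgfc and Rasl11a, but the calls held without it. For these genes all 4 ID8-FSHR libraries were below all ID8 libraries, which the rule that picked them required. Pcdh19 did not pass with DESeq2 (adjusted p = 0.058, in a range from 0.000364 over the alternatives).

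Intermediate genes with the largest decreases were likewise picked only among genes whose groups did not overlap. Ace, angiotensin-converting enzyme (chr11:105967945-105989964, GRCm38), read 70.7, 70.9, 83.7 and 86.9 CPM in ID8 and 14.2, 8.30, 15.2 and 17.4 CPM in ID8-FSHR, against 3.54 ± 0.378 CPM (SD, n = 4) without tumour. No ID8-FSHR library came near the ID8 range (5.66-fold lower, edgeR adjusted p = 2.49e-05). Pcp4l1, a calmodulin-regulator-like protein, fell by 2.72 on the log2 scale, P3h2, a collagen prolyl hydroxylase, by 2.80, and the serine protease gene Prss23 by 2.09.

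Only 5 near-absent genes met the rule for the largest increases, which takes only genes whose groups do not overlap. Nos1, neuronal nitric oxide synthase (chr5:117781032-117958840, GRCm38), was 1.53, 1.41, 2.27 and 2.03 CPM in ID8 and 19.2, 5.43, 16.9 and 16.3 CPM in ID8-FSHR, against 0.10 CPM on average without tumour. ID8-FSHR replicate 2 was the lowest of its group and still above every ID8 library (8.00-fold, log2 3.00 ± 0.45 SE, edgeR adjusted p = 0.00104). The membrane protein gene Tmem255a rose by 1.61 on the log2 scale and Scube3, a secreted EGF-like protein, by 1.07. Map1a, a microtubule-associated protein, and Scara5, a ferritin receptor, were at 1.36 and 0.97 (edgeR adjusted p = 0.0219 and 0.017), but their calls did not survive every leave-out. Map1a was lost without ID8 replicate 1, 3 or 4 or ID8-FSHR replicate 3 or 4, and Scara5 without ID8 replicate 1 or 4, with adjusted p of up to 0.0693 and 0.0532.

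The mesothelial and ovarian surface list holds markers of the lining from which ID8 descends. It had 7 of 16 members lower (against 5.56% of all tested genes) and 0 higher, with a median log2 fold change of -0.89. Its members were near absent or intermediate without tumour apart from Dpp4. Their summed level was 7411 to 9479 CPM in ID8, 2121 to 6137 CPM in ID8-FSHR and 83.6 to 100.9 CPM in uninjected mice, and the lowest ID8-FSHR value was that of replicate 2. Podxl, a sialomucin, read 216.2, 200.8, 275.5 and 273.4 CPM in ID8 and 83.8, 57.2, 98.0 and 87.8 CPM in ID8-FSHR. The groups were well apart (log2 fold change -1.56 ± 0.17 SE, edgeR adjusted p = 0.000109). Upk1b, a uroplakin, fell from 146.2 ± 25.7 to 44.4 ± 16.8 CPM (SD, n = 4 each), and Gpm6a, a membrane glycoprotein, by 1.10 on the log2 scale. Msln, Krt19, Lrrn4 and Pkhd1l1 were also lower. The defining factor Wt1 stood at 550.1 ± 43.0 and 370.8 ± 125 CPM, with every ID8-FSHR value below every ID8 value but did not pass (edgeR adjusted p = 0.144). The list kept a count of 7 lower when ID8-FSHR replicate 2 was left out, with a median of -0.63. The share of counts on near-absent genes fell with this list, and its part in the result was not tested. Of the epithelial list, Epcam, an adhesion molecule, was the 1 lower member of 10; its call was lost under the scaling on near-absent genes (edgeR adjusted p = 0.0533, the highest in a range from 9.91e-05). Epcam was present in uninjected libraries at 9.97 CPM on average, above both tumour groups (5.28 and 2.03 CPM).

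Growth factor, matrix and Wnt genes were examined next, against 5.56% of all tested genes called lower and 6.04% higher. Of 20 tested growth factor and ErbB genes, 6 were lower and 0 higher: Igfbp5 and Igfbp2, which bind insulin-like growth factors, Pdgfc, the receptors Erbb3 and Erbb4, and Igf1r. Igfbp5 stood at 139.5, 157.8, 154.6 and 173.0 CPM in ID8 and 46.1, 28.1, 51.2 and 29.4 CPM in ID8-FSHR. The groups did not overlap (log2 fold change -2.01 ± 0.31 SE, edgeR adjusted p = 0.00126). Of 24 matrix genes, 7 were lower and 0 higher, with a median of -0.70; Eln, which encodes elastin, fell by 1.55 on the log2 scale, Timp2 and Timp3, inhibitors of metalloproteinases, by 0.54 and 0.92. Lox, the collagen cross-linking oxidase, stood at -1.88 (edgeR adjusted p = 0.0425). The matrix count fell to 3 without ID8-FSHR replicate 2 and ranged from 1 to 4 without ID8 replicate 1, 3 or 4, ID8-FSHR replicate 3 or 4, or uninjected replicate 1 or 3, and the growth factor count was 3 without ID8 replicate 1, 3 or 4. Eln was lost without ID8 replicate 4 and Timp3 without ID8 replicate 1 or 4 or ID8-FSHR replicate 3, while Lox was kept with ID8-FSHR replicate 1 or uninjected replicate 1, 2 or 4 left out and lost with any other library left out. Under the scaling on near-absent genes 2 matrix genes and 5 growth factor genes were lower, and of the Wnt and Notch genes 2 were higher and 2 lower. Of 20 Wnt and Notch genes 4 were lower (Jag1, a Notch ligand, Rspo1, an enhancer of Wnt signalling, Wnt9a and Wnt11) and 1 higher (Wnt4), which lost its call without ID8 replicate 3. Jag1 stood at 94.2, 74.2, 82.7 and 77.3 CPM in ID8 and at 42.4, 31.9, 39.4 and 50.9 CPM in ID8-FSHR, with no overlap, and passed under that scaling too, while Rspo1 did not (edgeR adjusted p = 0.0556). The change of Jag1 with all-gene scaling held whichever library was left out (log2 fold change -1.0 ± 0.12 SE, edgeR adjusted p = 0.00029).

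Genes of the receptor's own pathway were examined in 2 lists, and no set test was made. Without tumour, 8 members of the cAMP list were intermediate and 15 abundant. Their levels therefore do not isolate the tumour cells, and signalling by the receptor was not tested. In the gonadal steroid and FSH response list, 1 of 17 tested members was higher and 0 lower, with a median of -0.07. The higher gene was Scarb1, the HDL receptor that supplies cholesterol for steroid synthesis. It read 49.8, 48.4, 45.5 and 47.8 CPM in ID8 and 66.3, 88.7, 82.2 and 80.7 CPM in ID8-FSHR, all of the latter above (log2 fold change 0.73 ± 0.10 SE, edgeR adjusted p = 0.000636). Scarb1 was abundant in uninjected mice too, at 41.6 CPM on average. Star, the cholesterol transporter of steroid-making mitochondria, averaged 147.3 and 106.8 CPM in ID8 and ID8-FSHR (adjusted p = 0.173 by edgeR), Inha, the inhibin alpha subunit, 11.3 and 24.2 CPM (0.14), and Nr5a1, the steroidogenic factor, 36.7 and 32.1 CPM (0.708). In the cAMP and protein kinase A list, 1 of 23 was higher and 2 lower, with a median of 0.14: Creb3l1 at 0.61, Adcy9, an adenylyl cyclase, at -0.70 and Prkar1a, a regulatory subunit of the kinase, at -0.25. Adcy9 stood at 14.1, 16.2, 15.2 and 16.3 CPM in ID8 and 10.5, 8.28, 11.1 and 8.18 CPM in ID8-FSHR, without overlap. Its call held whichever library was left out but not under the scaling on near-absent genes (edgeR adjusted p = 0.0775, the highest in a range from 4.84e-07 over the alternatives). Creb3l1 was lost without any 1 ID8 library or ID8-FSHR replicate 2 or 4, and Prkar1a without any 1 library other than ID8-FSHR replicates 1 and 3. The share of all tested genes called was 11.6%.

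**Figure D3:**
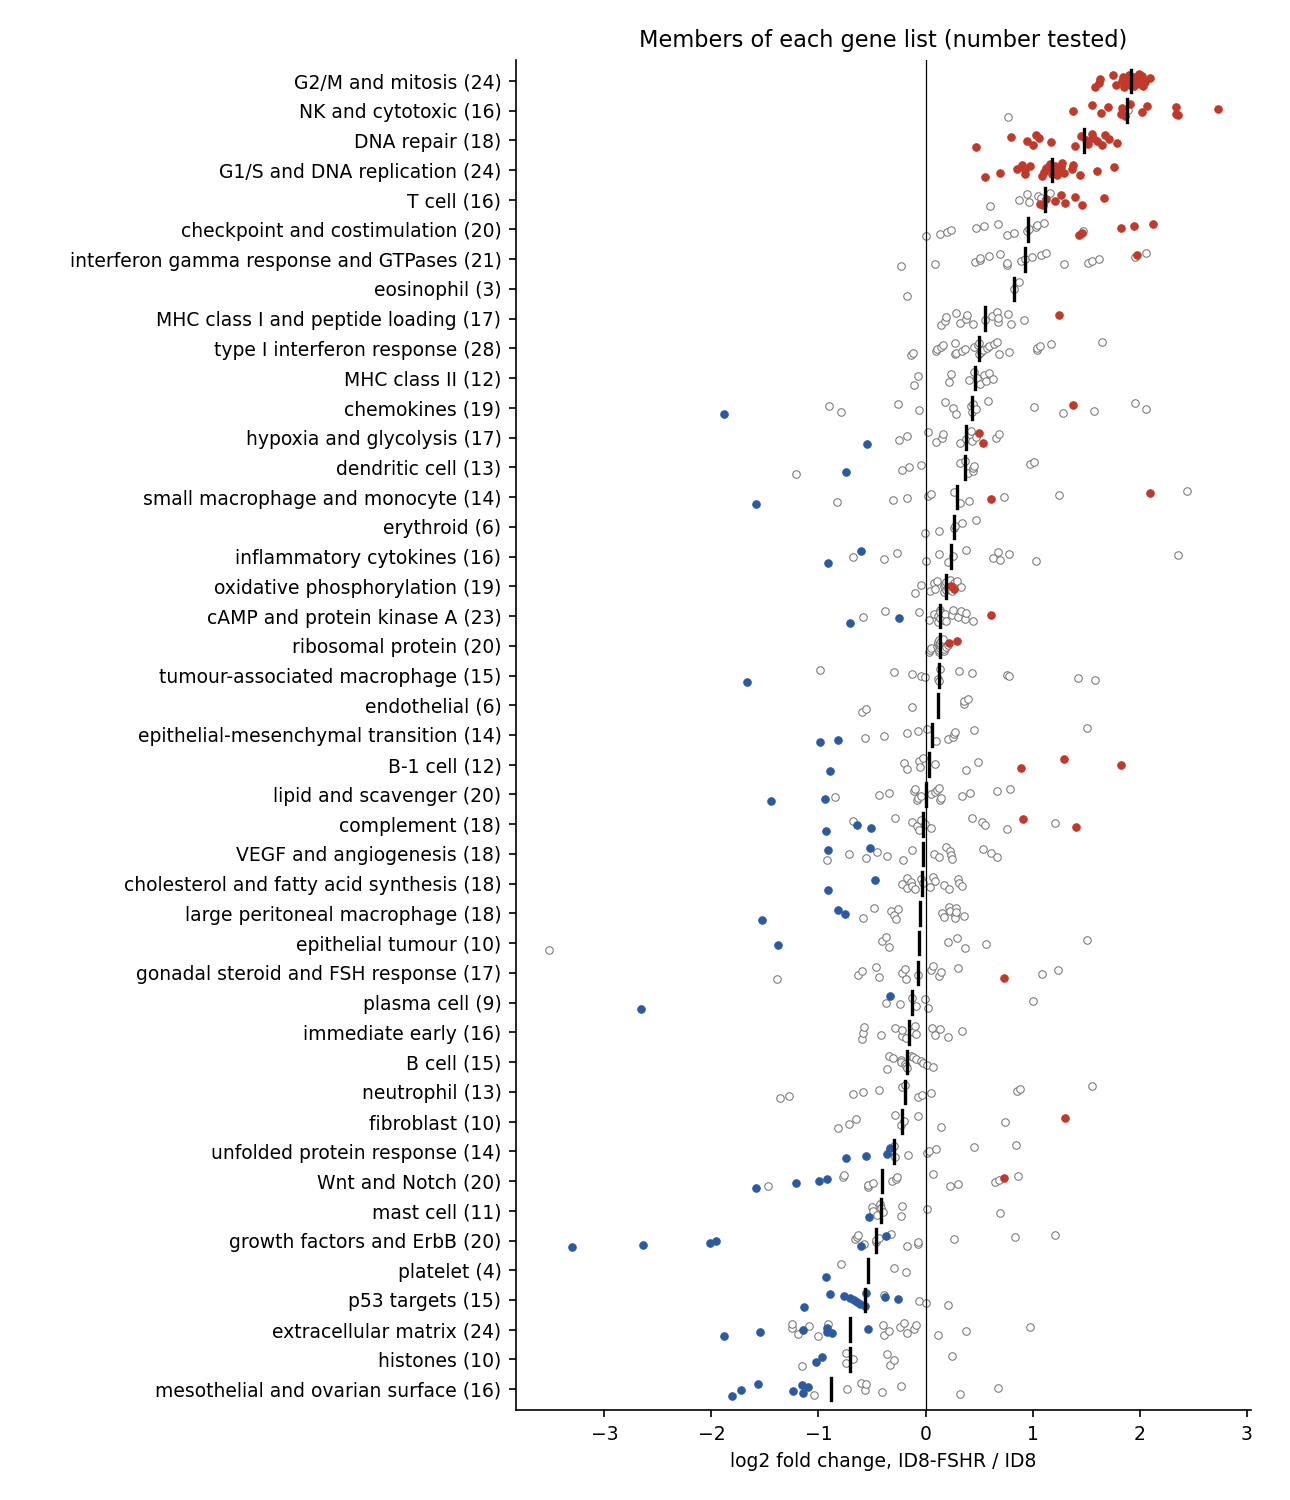
Log2 fold change (horizontal axis) of every tested member of each list with at least 3 tested members, 1 point per gene, with the number tested in brackets and a black bar at the median; red and blue mark members called higher and lower, open points the rest. The cell cycle, DNA repair and NK lists lie to the right of 0, with medians of 1.18 to 1.92, and the p53, matrix, histone and mesothelial lists to the left, with medians of -0.57 to -0.89.

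NK and T cell genes were higher in ID8-FSHR, unevenly across its libraries. Of 16 NK and cytotoxic genes 14 were higher and 0 lower, with a median log2 fold change of 1.88. The groups were apart for 2 of them only, Eomes and Ctsw. Over all tested genes 6.04% were higher, and 7.74% had every ID8-FSHR value above ID8. Eomes, a transcription factor of NK cells and effector T cells, stood at 3.54, 2.54, 1.79 and 3.34 CPM in ID8 and 4.10, 16.5, 7.79 and 17.4 CPM in ID8-FSHR. ID8-FSHR replicate 1 was close to the ID8 libraries, replicates 2 and 4 were high and replicate 3 was between (log2 fold change 2.02 ± 0.40 SE, edgeR adjusted p = 0.00687). Ctsw, a protease of cytotoxic cells, rose by 1.84 on the log2 scale and Klre1, a killer-cell lectin-like receptor, by 2.07. The summed level of the list was 74.8, 36.1, 29.6 and 47 CPM in ID8 and 51.9, 253.8, 134.4 and 324.8 CPM in ID8-FSHR, with replicate 1 of ID8-FSHR inside the ID8 range. The count was 7 without ID8-FSHR replicate 2, 6 without ID8-FSHR replicate 4, and 8, 6 and 6 without ID8 replicates 2, 3 and 4. It was 6 with limma-voom, 15 with DESeq2, and 7 with no filter on low counts or with only the 8 tumour libraries. Without ID8-FSHR replicate 2 the median of the list was 1.71. Ptprc, the pan-leukocyte marker CD45, averaged 368.8 and 534.8 CPM in ID8 and ID8-FSHR, with overlap and an edgeR adjusted p of 0.0506, while the near-absent share of counts was lowest in ID8-FSHR replicate 2; the part of either in these results was not tested.

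T cell genes were higher for 9 of 16 and lower for 0, with a median of 1.12, and 14 of the 16 had all ID8-FSHR values above ID8. Of all tested genes 6.04% were called higher and 7.74% had all ID8-FSHR values above ID8. Zap70, the kinase downstream of the T cell receptor, read 2.15, 2.36, 2.03 and 1.79 CPM in ID8 and 4.22, 9.07, 4.41 and 8.71 CPM in ID8-FSHR. Replicates 2 and 4 were again the highest, and no ID8-FSHR value fell into the ID8 range (log2 fold change 1.67 ± 0.36 SE, edgeR adjusted p = 0.0109). Cd28, the costimulatory receptor of T cells, rose from 0.93 ± 0.28 to 2.59 ± 0.74 CPM and Foxp3, the factor of regulatory T cells, from 2.08 ± 0.63 to 5.61 ± 1.64 CPM (SD, n = 4 each). Cd28, Zap70 and Foxp3 were called whichever library was left out. The T cell count was 2 without ID8-FSHR replicate 2 or 4 or without ID8 replicate 2, 3 or 4, and 5 without ID8 replicate 1. With limma-voom it was 4, with DESeq2 15, with no filter on low counts 5 and with only the 8 tumour libraries 14. The summed level of the list was 76.7 to 91.3 CPM in ID8, 118.5 to 236 CPM in ID8-FSHR and 84.0 to 265.9 CPM in uninjected mice, so the ID8-FSHR values lay within the uninjected range. Of 20 checkpoint and costimulation genes 5 were higher, with a median of 0.96: Cd28, Ctla4, an inhibitory receptor, Foxp3, Tigit and Tnfrsf9. Ctla4 itself was lost without ID8 replicate 3 or 4 or ID8-FSHR replicate 4. The number of called members was 2 or 3 without ID8 replicate 2, 3 or 4 or ID8-FSHR replicate 2 or 4, and 15 without ID8-FSHR replicate 1.

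Interferon and antigen presentation genes did not separate the groups, and their counts of called members rose when ID8-FSHR replicate 1 was left out. Over all 16915 tested genes, 4832 had an unadjusted p under 0.05, DESeq2 called 1540 higher and 1591 lower, and limma-voom 979 and 1262. Of 28 genes of the type I interferon response, 0 were called with edgeR and 3 had an unadjusted p under 0.05. DESeq2 called 1 of the 28 and limma-voom 0, and their median log2 fold change was 0.50. Their summed level was 1930, 2098, 1551 and 1165 CPM in ID8 and 920.7, 2183, 2196 and 3830 CPM in ID8-FSHR. ID8-FSHR replicate 1 was the lowest of all 8 libraries and replicate 4 the highest. The summed interferon gamma list was spread in both groups. It read 2615, 2611, 898.1 and 1108 CPM in ID8 and 936.4, 2742, 2642 and 4961 CPM in ID8-FSHR. Without ID8-FSHR replicate 1, 12 of the 28 were higher, as were 13 of 21 interferon gamma response genes (1 with all libraries), 11 of 17 MHC class I genes (1 with all libraries) and 8 of 12 MHC class II genes (0 with all libraries with edgeR, DESeq2 or limma-voom, and 3 at an unadjusted p under 0.05). The 1 interferon gamma gene called with all libraries was Serpina3g, a serine protease inhibitor, at 1.98 on the log2 scale (edgeR adjusted p = 0.0132), and it was lost without ID8 replicate 4 or ID8-FSHR replicate 2.

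Most resident and inflammatory myeloid markers did not pass the test. Over all tested genes 5.56% were called lower and 6.04% higher. Of 18 large peritoneal macrophage genes, 3 were lower (Apoc1, Tgfb2 and Vsig4) and 0 higher, with a median of -0.05; Adgre1, which encodes the macrophage marker F4/80, averaged 953.5 and 1165 CPM (edgeR adjusted p = 0.274). Apoe, the lipid carrier protein of macrophages, was the 1 lower member of the tumour-associated macrophage list. It read 3282, 3565, 5818 and 3360 CPM in ID8 and 2054, 833.8, 1253 and 914.3 CPM in ID8-FSHR, against 10140 ± 1195 CPM (SD, n = 4) in uninjected mice. The ID8-FSHR libraries lay below all ID8 libraries, and ID8 below uninjected (log2 fold change between the tumour groups -1.67 ± 0.27 SE, edgeR adjusted p = 0.00191). Cxcl13, the B cell chemokine, stood at -1.88, F13a1, a coagulation factor subunit of macrophages, at -1.58 and Apoc1, an apolipoprotein, at -1.52, each with a call that rested on single libraries. Cxcl13 kept its call only when ID8-FSHR replicate 1 was left out, F13a1 lost it without ID8 replicate 3 or 4 or ID8-FSHR replicate 2, and Apoc1 without ID8 replicate 3 or ID8-FSHR replicate 4. Tgfb2 was lost without ID8 replicate 3 or 4 or ID8-FSHR replicate 2, and Vsig4 without ID8 replicate 3 or ID8-FSHR replicate 2 or 3. Other large decreases among abundant genes were Lama3 (-1.84), a laminin chain, Cbr2 (-1.74), a carbonyl reductase, and Cp (-1.48), ceruloplasmin, and these 3 were called whichever library was left out. Cp read 529.6, 515.4, 495.0 and 519.2 CPM in ID8 and 183.4, 106.6, 233.0 and 213.9 CPM in ID8-FSHR, against 97 CPM on average without tumour, so that ID8 was above both other groups for this gene.

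Among all 16915 tested genes, 11.6% were called with edgeR and 4832 had an unadjusted p under 0.05. Of the 15 B cell genes 0 were called with edgeR, DESeq2 or limma-voom and 0 had an unadjusted p under 0.05. Their median was -0.17, with log2 fold changes between -0.36 and 0.07. Their summed level was 818.4 to 1209 CPM in ID8, 723.6 to 1240 CPM in ID8-FSHR and 6664 to 8642 CPM in uninjected mice. The neutrophil, eosinophil, erythroid and endothelial lists likewise had 0 called members with edgeR, DESeq2 or limma-voom among 13, 3, 6 and 6 tested, and 1, 0, 0 and 1 at an unadjusted p under 0.05. Complement C3 was at 839.0, 730.6, 437.8 and 608.9 CPM in ID8 and 665.1, 2676, 1523 and 2049 CPM in ID8-FSHR. ID8-FSHR replicate 1 again lay inside the ID8 range (log2 fold change 1.40 ± 0.32 SE, edgeR adjusted p = 0.0157), and the call was lost without ID8 replicate 3 or 4 or ID8-FSHR replicate 2. Derl3, of endoplasmic reticulum quality control, fell from 6.31 ± 1.35 to 0.99 ± 0.44 CPM (SD, n = 4 each; log2 fold change -2.66, edgeR adjusted p = 0.000459). It was 1 of 2 lower members of the 9 plasma cell genes, with Xbp1, while Jchain, Sdc1 and the others did not pass. Xbp1, a transcription factor of secretory cells, stood at -0.33 on the log2 scale and lost its call without any 1 ID8 library, ID8-FSHR replicate 4 or uninjected replicate 1 or 3.

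The other lists of host cells and programmes held 5 or fewer called members each. They stand beside 11.6% of all tested genes called, 6.04% higher and 5.56% lower. The counts of 2 of 18 vascular growth factor genes and 2 of 19 chemokines lie near the 11.6%. Of 12 B-1 cell genes, 3 were higher (Cd5, Ctla4 and Spn, all also expressed by T cells) and 1 lower (Ahr, the aryl hydrocarbon receptor). Ly6c2, a surface protein of inflammatory monocytes, was a higher member of the small macrophage and monocyte list, which also holds F13a1, and lost its call without ID8-FSHR replicate 2. In the fibroblast list Thy1 was the 1 higher of 10, also lost without that library. The median log2 fold change of the fibroblast list was -0.22. Its summed level was 483.3 to 606.8 CPM in ID8 and 297.2 to 457.6 CPM in ID8-FSHR. The dendritic cell, mast cell and platelet lists had 1 lower member each of 13, 11 and 4 (Fscn1, Mcpt4 and Itgb3), and only Itgb3, an integrin subunit, was called whichever library was left out. Chemokines had Ccl5 higher and Cxcl13 lower of 19, and MHC class I genes had H2-Q7 higher of 17. Epithelial-mesenchymal transition genes had 2 lower of 14 (Cdh3 and Tgfb2) and vascular growth factor genes 2 lower of 18 (Met and Nrp2).

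Metabolic and stress lists are read against the 11.6% of all genes called, of which 6.04% were higher and 5.56% lower. Of 14 unfolded protein response genes 4 were lower (Pdia4, a disulfide isomerase, Creld2, Hsp90b1 and Xbp1), and 0 under the scaling on near-absent genes. Scd1 and Scd2, the stearoyl-CoA desaturases, were the 2 lower of 18 lipid synthesis genes, Scd1 by 0.91 on the log2 scale. Pgk1 and Pkm were higher and Egln3 lower of 17 hypoxia and glycolysis genes. Oxidative phosphorylation had 2 higher of 19 and ribosomal proteins 2 higher of 20 (Rps2 and Rplp0), with log2 changes of at most 0.33 and 0.29. Among complement genes C3 and Cfb were higher and Cd59a and Cd55 lower. Csf1 and Lif were the 2 lower of 16 inflammatory cytokine genes, Cd163 and Stab1 the 2 lower of 20 lipid and scavenger receptor genes, and H2bc4 and H1f2 the 2 lower of 10 histone genes tested. Of 16 immediate early genes 0 were called with edgeR, 4 at an unadjusted p under 0.05, 4 with DESeq2 and 2 with limma-voom. Of all 16915 tested genes, 4832 had such a p, DESeq2 called 1540 higher and 1591 lower, and limma-voom 979 and 1262. Among the genes of these lists, Cd5, Ahr, Itgb3, Nrp2, Pdia4, Creld2, Hsp90b1, Scd1, Egln3, Rps2 and H2bc4 were called whichever library was left out, but of these only Cd5, Itgb3 and H2bc4 also passed under the scaling on near-absent genes. The edgeR adjusted p under that scaling was 0.0988 for Ahr, 0.292 for Nrp2, 0.39 for Pdia4, 0.209 for Creld2, 0.811 for Hsp90b1, 0.0528 for Scd1, 0.198 for Egln3 and 0.0961 for Rps2. Spn, Cfb and Cd55 were not followed over the alternatives, and each of the others lost its call with at least 1 ID8 or ID8-FSHR library left out.

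**Figure D4:**
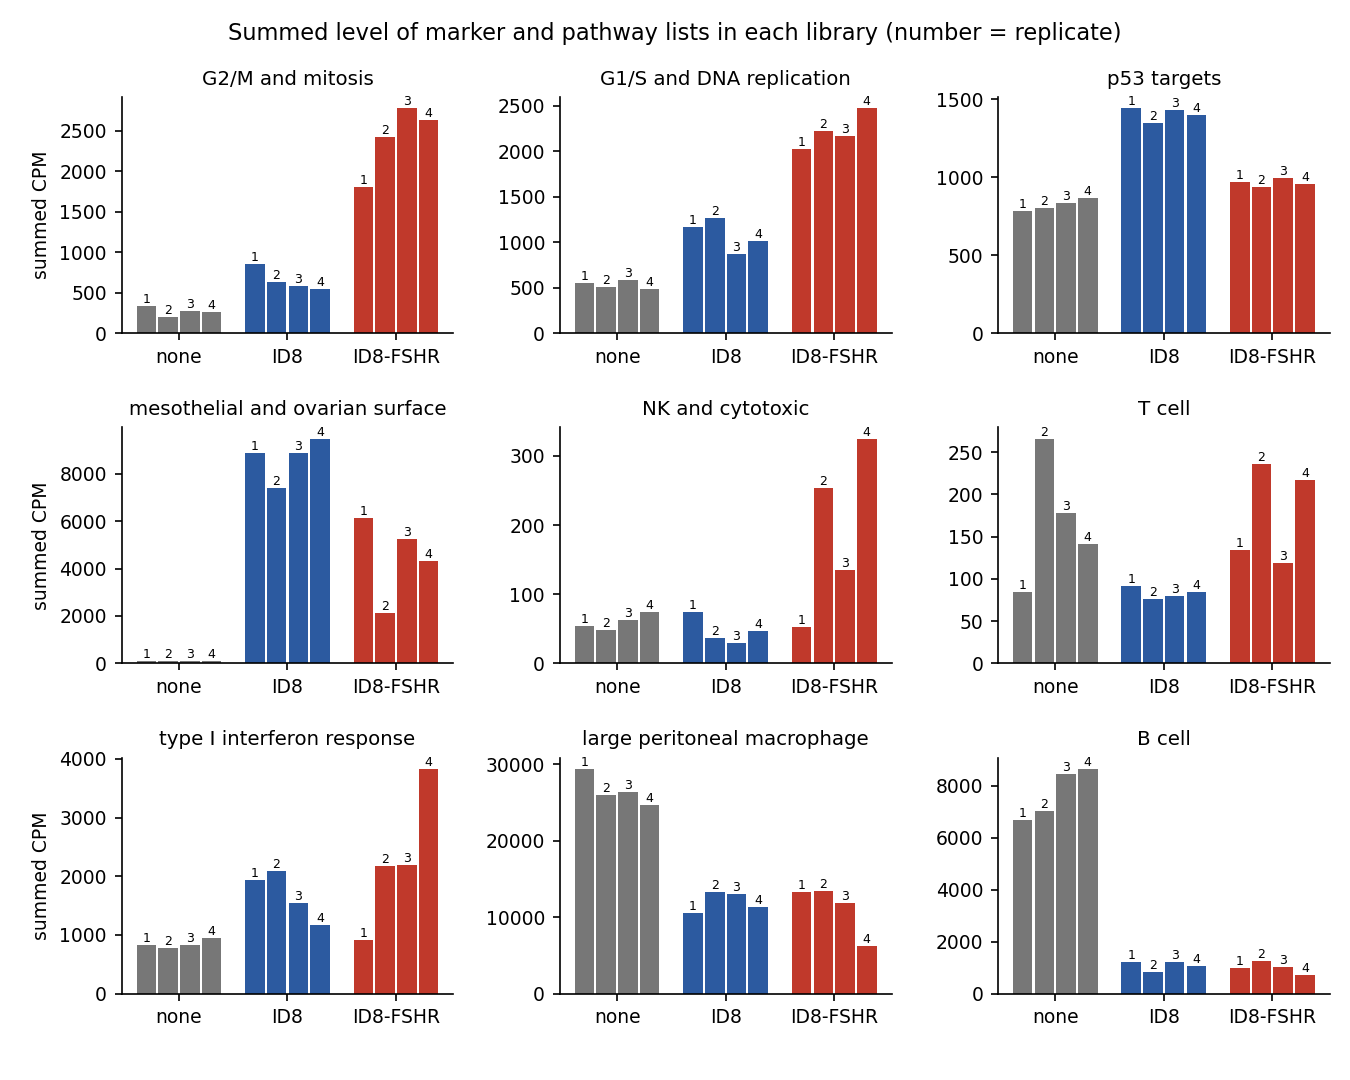
Summed CPM of 9 gene lists (vertical axes, from 0), 1 bar per library with its replicate number, for uninjected ("none", grey), ID8 (blue) and ID8-FSHR (red) mice. The 4 ID8-FSHR bars stand apart from all 4 ID8 bars for mitosis, DNA replication, p53 and mesothelial genes, and spread widely for NK genes (51.9 to 324.8 CPM) and type I interferon genes (920.7 to 3830 CPM).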

How the data were processed

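Bulk RNA of peritoneal lavage cells was sequenced in 12 libraries (Qiagen miRNeasy Micro, KAPA RNA HyperPrep with RiboErase, 100 ng RNA). The deposited values are raw read counts per gene; per the submitters' processing notes bcl2fastq 2.20, STAR 2.7.9a, featureCounts (Subread 1.6.4) and the build GRCm38.p6 were used. Strand setting, treatment of reads with several matches and annotation release were not stated in the labels or notes at hand, so genes that share sequence or overlap an antisense gene are uncertain. The table held 55401 genes.

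Genes were kept with edgeR's filterByExpr (16915 genes). Quasi-likelihood F tests (edgeR 4.0.16, R 4.3.3, robust, trimmed mean of M values factors, 1 term for group) were fitted on all 12 libraries, so the 3 groups share the estimate of spread, with Benjamini-Hochberg adjustment over all tested genes and a threshold of 0.05. Levels are CPM with effective library sizes; fold changes are ID8-FSHR over ID8. The test was run on simulated counts from these libraries with 200 changed genes, of which 48 or 49 per fold were tested. For ID8-FSHR versus ID8 over 16481 genes it recovered 36.7% of 1.5-fold, 65.3% of 2-fold, 79.2% of 3-fold and 73.5% of 4-fold changes with 3 false calls. Both tumour groups were drawn from the ID8 means with 1 spread per gene, whereas the ID8-FSHR libraries differed more among themselves than the ID8 libraries. The 3 false calls are therefore not an error rate for the data. With total counts of at least 47419608, 3 counts come to at most 0.0605 CPM in the tumour libraries.

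Named genes were Fshr, Defb29 and Vegfa, the 8 largest increases and 8 largest decreases among near-absent and among abundant genes and 4 each way among intermediate genes (called, mean log2 CPM of at least 3, no predicted models, groups not overlapping), and up to 3 called members per list by adjusted p. Small counts are named in full. Wt1, Ptprc, Adgre1, Star, Inha, Nr5a1, Jchain, Sdc1 and list members outside these rules were chosen after their values were seen. The members and the 46 lists were chosen with earlier results of these data known. Alternatives were other scalings, filters, tools (DESeq2 1.42.0, limma-voom with limma 3.58.1), thresholds, class limits, a replicate term and each library left out. Promoter windows are from RefSeq, matched by symbol. Gene coordinates are on GRCm38. A few genes that the rule names are not reported here.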

Additional observations from a re-analysis of the deposited data

Results flagged for a closer look

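Of 176 group values checked, 13 had 1 library further from the nearest of the other 3 than Dixon's critical share of the range of its group allows; chance gives about 1 in 20 such gaps. In ID8, replicate 1 was high for Tpx2 (40.05 CPM) and Ccnb1 (16.66 CPM) and low for the summed small macrophage and monocyte list (17070 CPM), and replicate 3 was high for Apoe (5818 CPM). ID8 replicate 2 had the lowest share of counts on near-absent genes (1.95%) and intermediate genes (5.48%), the highest on abundant genes (92.6%) and stood apart in the summed unfolded protein response list (6598 CPM). In ID8-FSHR, replicate 2 stood apart for Map1a (12.83 CPM), the summed tumour-associated macrophage list (8014 CPM) and the summed gonadal steroid and FSH response list (739.6 CPM). ID8-FSHR replicate 3 stood apart in the summed erythroid list (377.1 CPM) and replicate 1 in the summed histone list (99.76 CPM). The causes were not tested.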

How the results depend on the processing

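The mitosis list had 24 of 24 members higher under every alternative run, and of 37 genes named for the largest changes 31 were called whichever library was left out. Of 2687 values of named genes under alternatives, 2313 kept direction and call, 373 lost the call, 1 gained it and 0 changed direction. The overall counts depended on single libraries: 555 (without ID8 replicate 4) to 1731 (without ID8-FSHR replicate 1) genes were higher and 406 to 1405 lower over the same 2 omissions. Shares higher ranged over the omissions from 0.6215 to 2.82% (near absent), 5.262 to 10.28% (intermediate) and 3.179 to 12.97% (abundant), shares lower from 1.945 to 6.713%, 2.035 to 7.669% and 2.707 to 9.007%, and median log2 fold changes from -0.2667 to -0.1247, -0.0705 to -0.02213 and 0.01598 to 0.03189.

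With scaling on near-absent genes 268 genes were lower, with 3.079% of near-absent and 2.06% of intermediate genes lower, 4.193% of abundant genes higher and 0.7372% lower, and medians of 0.007892, 0.1905 and 0.2764 (near absent, intermediate, abundant). Scaling on abundant genes gave medians of -0.07728 (intermediate) and -0.003515 (abundant). With no filter on low counts 0.3384% of near-absent genes were higher and 0.94% lower (median -0.09408) and 3.246% of intermediate genes lower; fewer of the added low genes can pass. With 1 CPM in at least 4 libraries 3.749% and 14.39% of near-absent genes were higher and lower (median -0.4066). With only the 8 tumour libraries 604 genes were lower, and 4.377% and 2.96% of abundant genes higher and lower. DESeq2 called 1540 higher and 1591 lower (3.582% and 8.467% of near-absent, 10.67% and 10.06% of abundant genes, and 8.898% of intermediate genes lower), of which 1017 and 925 were shared with edgeR. Limma-voom called 10.04% of near-absent genes lower (median -0.2721). At an adjusted p under 0.01 there were 428 higher and 279 lower (0.296% and 1.391%, 4.346% and 1.339%, 2.384% and 1.924% in the 3 classes), and with a fold of at least 2, 412 and 260 (intermediate lower 1.833%, abundant 0.7717% and 0.2534%). Class limits of 0.1 and 50 CPM gave 8.285% of near-absent genes lower, and medians of -0.331 (near absent) and -0.01962 (intermediate). Causes were not tested beyond what each alternative changes by construction.

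Pairing by replicate number was not evident. Same-numbered libraries deviated from their group means with correlations of -0.217, 0.352, 0.201 and -0.0471, and only number 2 correlated best with its own number. So few correlations, with no reference to set them against, cannot exclude a pairing. With a replicate block 860 genes were higher and 916 lower, and 8 of 16 NK genes higher.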

Other observations

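Calls among genes abundant without tumour were counted by chromosome, against 6.77% higher and 6.08% lower over all 8682 such genes. Chromosome 10 had 16 higher and 51 lower of 411 tested (3.89% and 12.4%), and chromosome 4 had 18 and 57 of 504 (3.57% and 11.3%). Chromosome 19 had 17 and 36 of 303 (5.61% and 11.9%), and chromosome 16 had 7 and 27 of 267 (2.62% and 10.1%). The balance was the other way on chromosome 2, with 55 higher and 26 lower of 646 (8.51% and 4.02%). It was so too on chromosome 17, with 42 and 15 of 447 (9.4% and 3.36%), and on the X chromosome, with 27 and 7 of 248 (10.9% and 2.82%). These chromosomes were chosen after their counts were seen, and no test was made. By gene type, 970 of 13329 protein-coding genes were higher and 833 lower, against 6.04% and 5.56% of all tested genes. Of 736 genes of type TEC (gene models awaiting experimental evidence) 1 was higher and 21 lower, and of 448 antisense genes 3 and 11. Gene types were not matched for level, and no test was made.

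Windows with the interferon-stimulated response element on either strand were 13 of 21 type I interferon genes (61.9%), against 3.95% of tested genes, 3.05% of genes higher and 4.05% of genes lower in ID8-FSHR.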
